A study of Arabidopsis thaliana with 2 samples.

Results

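The genes described here are 10 Arabidopsis thaliana genes known to answer to sugar supply or to darkness, chosen by name with their values in these data already known. Of the 10, 7 have a row among the 6791 genes of the table: SEN1, BGLU30, KFB20, KFB50, TPS8, AT2G20670 and GPT2. ASN1 (AT3G47340), DIN10 (AT5G20250) and DRM2 (AT2G33830) have no row in it and were not analysed here. RNA sequencing compared ago1-27, a weak allele of the microRNA effector ARGONAUTE1, with wild type. The tissue was labelled as open flower buds of soil-grown plants, kept at 20 °C under 16 h of light and 8 h of dark. Each genotype was labelled as 3 replicates but came as 1 value per gene, in RPKM, a read count scaled by transcript length and by the mapped reads of the library. No test between genotypes was therefore run. The labels name neither the accession of the wild type, nor plant age, nor the hour of collection, nor whether replicates were separate plants.

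Plant cells short of sugar, as in prolonged darkness, activate the kinase SnRK1 and bZIP transcription factors, which switch on genes for the recovery of carbon and nitrogen. SEN1 and BGLU30 are among the dark-inducible (DIN) genes of this response, and KFB20, KFB50, TPS8 and AT2G20670 are also induced by starvation and repressed by sugar. GPT2, which carries glucose 6-phosphate into plastids, behaves in the opposite way and is induced by sugar.

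Transcripts of the starvation-induced genes chosen here were mostly less abundant in ago1-27, and GPT2 was more abundant. Of the 6 starvation-induced genes with a row, 5 had the lower value in ago1-27, by 1.66-fold to 16.6-fold, and BGLU30 had the higher. Of all 6791 rows, 30.6% had the lower value in ago1-27 and 69.4% the higher. A gene was called when log2(RPKM + 1) differed by at least 1 and RPKM reached 1 in either genotype. By this rule 4 of the genes were called lower in ago1-27 and 0 higher. Of all 6606 rows that met the RPKM limit, 10.5% were called lower and 11.3% higher. These genes were picked from this same contrast, so the counts describe them only. BGLU30 alone failed the RPKM limit, and KFB50 and GPT2 stayed inside the threshold. In bulk tissue, fewer cells that express a gene and less RNA per cell cannot be told apart.

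**Figure D1:**
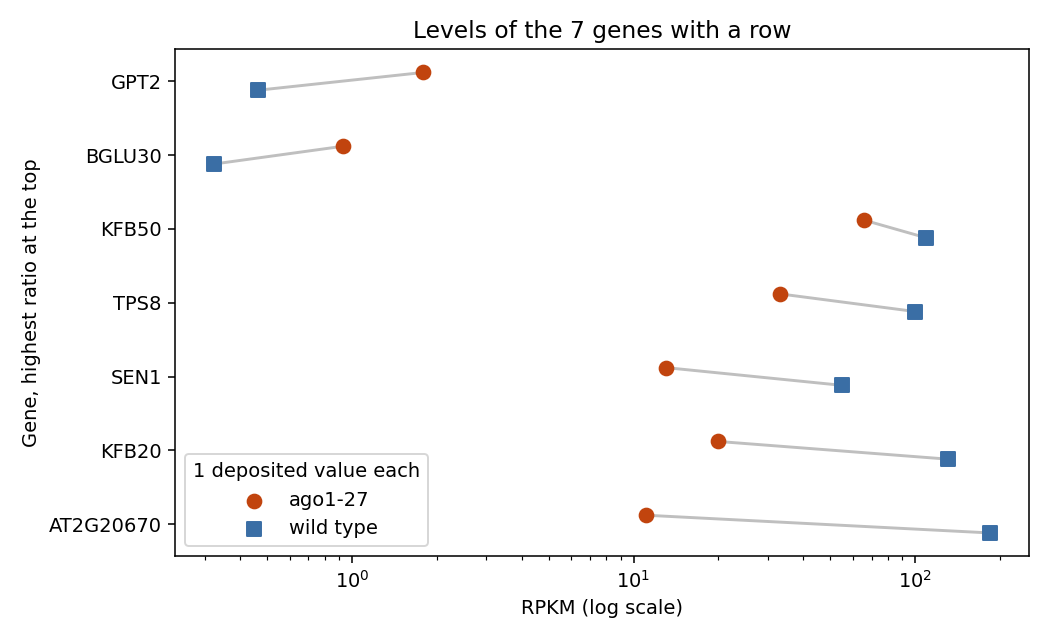
RPKM (log scale) of the 7 genes with a row, 1 deposited value for ago1-27 (circles) and 1 for wild type (squares), with no error because replicates were combined. In wild type 5 genes lie between 55.1 and 185 RPKM and are lower in ago1-27, whereas GPT2 and BGLU30 lie under 2 RPKM in both genotypes and are higher in ago1-27.

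Promoter sequence of 6 of the genes is shown because 4 of them were called lower together, KFB50 was lower without passing the threshold, and GPT2 differed in the opposite direction. Each line is the 250 bases before the most upstream RefSeq transcript start in TAIR10.1, read 5′ to 3′ on the gene's own strand. For KFB50 this is the start of its mRNA, at base 22142900, inside the annotated gene bounds. Capitals mark TATCCA, a motif linked to sugar control, in KFB20 (as TGGATA on the other strand) and AT2G20670, GATAAG (or CTTATC), the I-box of light-regulated promoters, in SEN1 and TPS8, and AAAATATCT, the evening element of clock-controlled promoters, in KFB50 and GPT2. The windows are chr4:16944628-16944877 (plus strand) for SEN1, chr1:30241202-30241451 (plus) for KFB20, chr3:22142650-22142899 (plus) for KFB50, chr1:26474834-26475083 (minus) for TPS8, chr2:8913748-8913997 (minus) for AT2G20670 and chr1:22824164-22824413 (plus) for GPT2.
AT2G20670: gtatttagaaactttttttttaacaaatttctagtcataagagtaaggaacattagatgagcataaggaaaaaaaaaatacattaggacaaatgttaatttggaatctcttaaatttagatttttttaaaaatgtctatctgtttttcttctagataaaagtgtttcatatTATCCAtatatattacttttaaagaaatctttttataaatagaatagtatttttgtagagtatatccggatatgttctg
KFB20: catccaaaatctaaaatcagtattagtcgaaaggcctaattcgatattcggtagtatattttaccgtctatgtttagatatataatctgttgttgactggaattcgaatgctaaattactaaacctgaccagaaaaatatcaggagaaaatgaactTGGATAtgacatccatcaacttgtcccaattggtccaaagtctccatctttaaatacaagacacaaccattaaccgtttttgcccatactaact
SEN1: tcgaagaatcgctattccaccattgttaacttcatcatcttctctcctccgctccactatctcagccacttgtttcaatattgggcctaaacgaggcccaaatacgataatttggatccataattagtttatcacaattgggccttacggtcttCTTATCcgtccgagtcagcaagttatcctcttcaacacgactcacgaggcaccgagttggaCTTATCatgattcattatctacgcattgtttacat
TPS8: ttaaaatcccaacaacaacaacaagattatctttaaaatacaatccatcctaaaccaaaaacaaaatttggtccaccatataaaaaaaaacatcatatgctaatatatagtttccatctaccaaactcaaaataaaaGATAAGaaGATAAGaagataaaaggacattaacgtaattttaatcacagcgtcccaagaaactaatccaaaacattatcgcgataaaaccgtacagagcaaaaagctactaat
KFB50: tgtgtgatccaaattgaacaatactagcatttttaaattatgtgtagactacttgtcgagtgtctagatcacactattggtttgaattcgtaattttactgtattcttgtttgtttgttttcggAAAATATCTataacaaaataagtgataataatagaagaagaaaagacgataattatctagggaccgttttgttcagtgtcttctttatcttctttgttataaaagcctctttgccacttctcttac
GPT2: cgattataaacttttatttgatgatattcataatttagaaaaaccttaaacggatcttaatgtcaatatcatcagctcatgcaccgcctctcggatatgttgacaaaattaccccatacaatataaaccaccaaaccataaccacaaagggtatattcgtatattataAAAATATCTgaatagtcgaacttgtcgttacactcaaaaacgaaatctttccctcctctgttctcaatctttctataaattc

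All motifs were searched on both strands from 250 bases before to 50 bases after the start, in the 7 genes and in 27443 protein-coding genes. TATCCA was found in SEN1, KFB20, KFB50 and AT2G20670, and in 16.1% of all windows. In KFB20 it began 94 bases before the start and in AT2G20670 79 bases before it, whereas in SEN1 and KFB50 it lay after the start and so outside the printed lines. GATAAG was found at 2 places each in SEN1 and TPS8, and in 14.7% of all windows. AAAATATCT was found in KFB50, 126 bases before the start, and in GPT2, 82 bases before it, and in 2.81% of all windows. The promoters that hold it thus belong to a gene with a lower value in ago1-27 and to one with a higher value. The G-box CACGTG, its core ACGTG, which the G-box contains, and ACTCAT, known from the bZIP-controlled proline dehydrogenase promoter, were in none of the 7 windows, against 7.68%, 26.7% and 14.7% of all windows.

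AT2G20670 had the widest difference of the 7. This gene, annotated by RefSeq as a putative sugar phosphate exchanger with a domain of unknown function, DUF506, lies on chromosome 2 from 8911860 to 8913747. Its level was 11.1 RPKM in ago1-27 and 185 RPKM in wild type, 16.6-fold lower in ago1-27. The 95% interval of this fold, exact for the reads expected in 1 average library, ran from 14.4 to 19.3. Such intervals cover counting error only and say nothing of variation between plants. In wild type it was the most abundant of the 7, and in ago1-27 it came after KFB50, TPS8, KFB20 and SEN1. By ratio it stood 43rd from the lowest of all 6791 rows.

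Relatives of AT2G20670 differed in both directions. The annotation names 14 DUF506 genes, 6 of which had a row. AT4G32480 was at 12.4 RPKM in ago1-27 and 64.8 RPKM in wild type, 5.23-fold lower. AT2G39650 was at 1.82 RPKM in ago1-27 and 8.995 RPKM in wild type, 4.95-fold lower. Both passed the threshold, as AT2G20670 did, and 10.5% of all rows compared were called lower. AT1G77145 was lower too, at 0.589 RPKM in ago1-27 and 1.76 RPKM in wild type, but inside the threshold. AT3G22970 and AT4G14620 had higher values in ago1-27, by 1.86-fold and 1.89-fold, also inside it. Of all rows, 30.6% had the lower value in ago1-27 and 69.4% the higher. The 5 relatives were picked by the annotation after the members' values were seen.

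The Kelch-repeat F-box genes, also named KISS ME DEADLY, encode adaptors that mark phenylalanine ammonia-lyase (PAL) and type-B cytokinin response regulators for degradation. KFB20 (AT1G80440, chromosome 1, 30241452 to 30243176) was at 19.97 RPKM in ago1-27 and 131 RPKM in wild type, 6.55-fold lower (5.90 to 7.28). KFB50 (AT3G59940, chromosome 3, 22142856 to 22144439) was at 65.7 RPKM in ago1-27 and 109 RPKM in wild type, 1.66-fold lower (1.55 to 1.79). KFB50 was the most abundant of the 7 genes in ago1-27, and came after AT2G20670 and KFB20 in wild type. It overlaps annotated genes on the opposite strand, and libraries without strand cannot separate their reads.

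The other members of this subfamily went both ways. KFB39 (AT2G44130, with the synonym KISS ME DEADLY 3 in RefSeq) was at 11.9 RPKM in ago1-27 and 36.8 RPKM in wild type, 3.09-fold lower (2.63 to 3.63). KFB01 was at 11.5 RPKM in ago1-27 and 4.36 RPKM in wild type, 2.63-fold higher (2.05 to 3.39). Reads of KFB39 cannot be told from those of an overlapping gene on the opposite strand. KFB39 and KFB01 both passed the threshold, so of the 4 subfamily genes 2 were called lower, 1 higher and KFB50 neither. Over all rows compared the shares were 10.5% lower and 11.3% higher. KFB01 was the least abundant of the 4 in wild type. The most abundant of the 4 in wild type, KFB20 and KFB50, both had lower values in ago1-27.

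The PAL enzymes, which open the phenylpropanoid pathway and are clients of these F-box proteins, were lower at the transcript level as well. All 4 PAL genes had a row, with values 1.98-fold to 2.98-fold lower in ago1-27, the direction of 30.6% of all rows. PAL1 was at 28.5 RPKM in ago1-27 and 84.9 RPKM in wild type. PAL2 was at 27.2 RPKM in ago1-27 and 61.8 RPKM in wild type. These 2 passed the threshold, and PAL3 and PAL4 did not, at log2(RPKM + 1) differences of -0.90 each. Of all rows compared, 10.5% were called lower.

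TPS8 (AT1G70290, chromosome 1, 26470795 to 26474833) encodes a class II trehalose-6-phosphate synthase-like protein, a family whose members are mostly thought to be regulatory rather than catalytic. Its level was 33.0 RPKM in ago1-27 and 100.2 RPKM in wild type, 3.03-fold lower (2.85 to 3.23). Trehalose 6-phosphate is the signal of sucrose status that inhibits SnRK1. Of 19 genes of trehalose metabolism in the list, 9 had a row, 8 of them with the lower value in ago1-27, against 30.6% of all rows. Of these 9, 5 were called lower, the chosen member TPS8 included, and 0 higher, against 10.5% and 11.3% of all rows compared. Their median log2(RPKM + 1) difference was -1.03, against 0.62 over all rows compared.

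Within class II, TPS11 was at 21.01 RPKM in ago1-27 and 49.5 RPKM in wild type, 2.36-fold lower (2.16 to 2.57) and past the threshold. TPS9 was 1.78-fold lower and TPS5 2.03-fold lower in ago1-27, both inside it. TPS10 had the opposite direction, at 34.6 RPKM in ago1-27 and 19.8 RPKM in wild type, 1.74-fold higher (1.61 to 1.89) and inside the threshold. In ago1-27 TPS10 was thereby at about the level of TPS8, which had been the most abundant of the family genes with a row in wild type. TPS1, the catalytic synthase, was at 9.85 RPKM in ago1-27 and 14.9985 RPKM in wild type, a difference inside the threshold. TPS1 and TPS5 also overlap genes on the opposite strand.

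All 3 trehalose-6-phosphate phosphatase genes with a row were called lower in ago1-27, as 10.5% of all rows compared were. These enzymes remove the signal by dephosphorylation. TPPA, TPPC, TPPD, TPPF, TPPG, TPPI and TPPJ had no row. TPPH was at 2.54 RPKM in ago1-27 and 10.4 RPKM in wild type, 4.10-fold lower (2.91 to 5.84). TPPE was 2.49-fold lower (1.94 to 3.27). TPPB was at 0.302 RPKM in ago1-27 and 1.66 RPKM in wild type.

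SEN1 (AT4G35770, chromosome 4, 16944878 to 16946266), also DIN1, encodes a plastid rhodanese-like protein used as a marker of dark-induced senescence. Its level was 13.1 RPKM in ago1-27 and 55.1 RPKM in wild type, 4.21-fold lower (3.58 to 4.99). Of the senescing-leaf markers, 3 of 5 had a row, with a summed level of 10.5 RPKM in ago1-27 and 27.5 RPKM in wild type. The transcription factors NAP, at 0.758 RPKM in ago1-27 and 10.8 RPKM in wild type, and NAC092, at 0.935 RPKM in ago1-27 and 15.1 RPKM in wild type, were called lower. SAG13, an alcohol dehydrogenase-like protein, was called higher, at 8.84 RPKM in ago1-27 and 1.67 RPKM in wild type. Over all rows compared, 10.5% were called lower and 11.3% higher. SAG12 and SGR1 had no row. The part of this marker list in the value of SEN1 was not tested.

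BGLU30 (AT3G60140, chromosome 3, 22216540 to 22220824), also DIN2, is a beta-glucosidase of the starvation response. It did not share the direction of the other starvation-induced genes with a row. Its level was 0.928 RPKM in ago1-27 and 0.324 RPKM in wild type, 2.86-fold higher in ago1-27. Both values equal whole reads of a single library, 22 reads in ago1-27 and 7 reads in wild type, at a transcript length of 1929 bases. The exact 95% interval of the ratio from these reads ran from 1.18 to 7.93. BGLU30 is thus the least certain of the 7 by depth, and a single library per genotype stands behind it. Its relative BGLU28 was also at a low level, with 1.86 RPKM in ago1-27 and 0.811 RPKM in wild type.

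**Figure D2:**
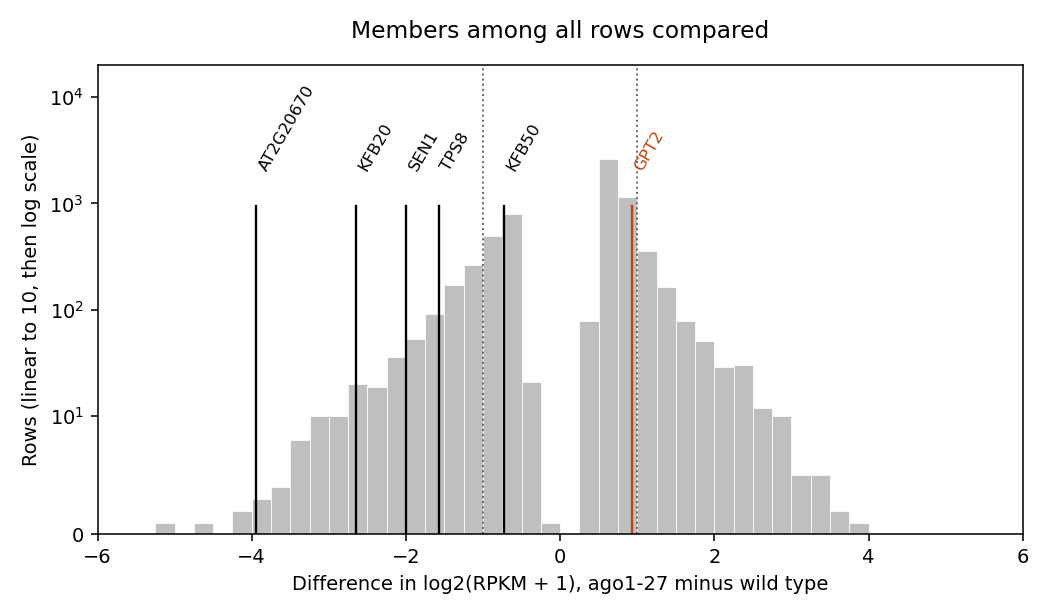
Number of rows (y axis, linear to 10 and then on a log scale) by the difference in log2(RPKM + 1), ago1-27 minus wild type, in bins of 0.25, for the 6606 rows that reached 1 RPKM in at least 1 genotype. Solid lines mark the 6 genes that met this limit and dotted lines the threshold of 1. Few rows lie near 0, and GPT2 at 0.93 lies to the right of the 5 starvation-induced genes, at -3.94 to -0.73.

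GPT2 (AT1G61800, chromosome 1, 22824414 to 22826902) was at 1.79 RPKM in ago1-27 and 0.465 RPKM in wild type, 3.84-fold higher in ago1-27. Its values were low enough to be split into whole reads of the 3 libraries of each genotype, at a length of 1569 bases, the single match among lengths from 1033 to 2413 bases. The split gave 25, 40 and 36 reads in the ago1-27 libraries, and 10, 6 and 10 reads in the wild-type libraries. In RPKM these were 1.397, 2.096 and 1.87 in ago1-27, and 0.459, 0.366 and 0.569 in wild type. The lowest ago1-27 library was above the highest wild-type library. The means were 1.79 ± 0.356 RPKM in ago1-27 and 0.465 ± 0.102 RPKM in wild type (SD, n = 3 each). The exact 95% interval of the ratio of summed reads ran from 2.48 to 6.17. The annotation used here lists other lengths for GPT2, so the split rests on the match alone. GPT2 was chosen from this contrast, and the per-library values are given without a test.

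Set beside GPT2, 5 of the 6 starvation-induced genes with a row lay on the other side of 0, and BGLU30 lay on the same side. The 5, which were those that met the RPKM limit, had a median log2(RPKM + 1) difference of -1.99, and GPT2 was 2.92 above it. With BGLU30 counted in, the median became -1.78 and the distance 2.71. GPT2 is the single sugar-induced member, so this sets 1 gene beside a group. The levels differed too, since in ago1-27 each of those 5 genes remained at 11.1 RPKM or more, above GPT2.

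Other sugar-induced genes gave no common direction. Of 11 in the list, 3 had a row. BAM5, a beta-amylase outside the plastid that sugar induces strongly, was at 5.16 RPKM in ago1-27 and 0.575 RPKM in wild type, 8.98-fold higher. Its values split into 110, 135 and 127 reads in ago1-27, and 16, 12 and 13 reads in wild type, at a length of 2006 bases. As RPKM these were 5.16 ± 0.363 in ago1-27 and 0.575 ± 0.0033 in wild type (SD, n = 3 each), and the libraries did not overlap. The wild-type spread is smaller than the counting error of 12 to 16 reads. PAP1, a MYB activator of anthocyanin synthesis, was called lower, at 0.385 RPKM in ago1-27 and 1.90 RPKM in wild type. CYCD3;1, a D-type cyclin, was 1.75-fold higher in ago1-27 and inside the threshold.

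**Figure D3:**
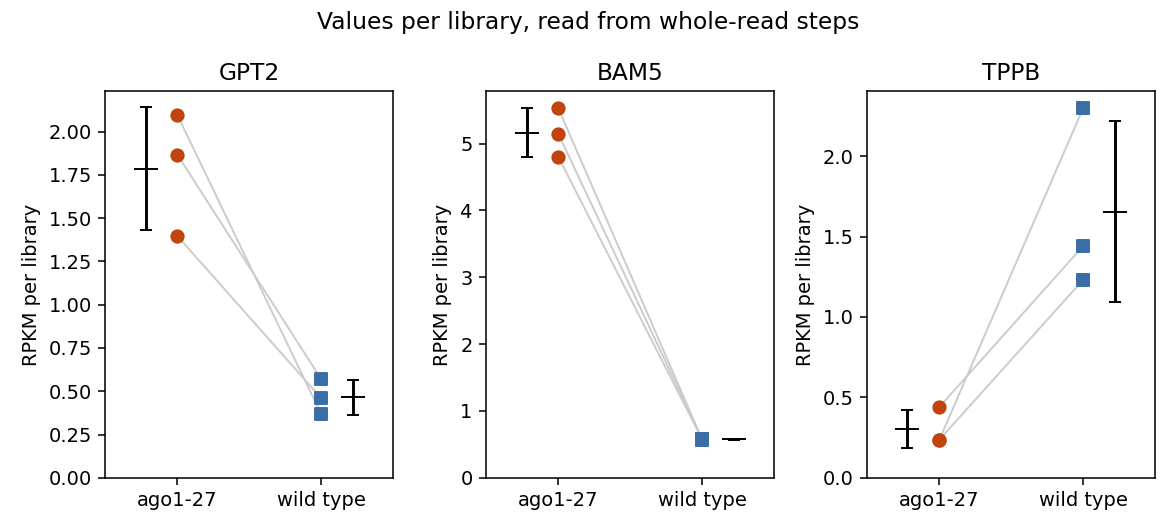
RPKM per library of GPT2, BAM5 and TPPB in ago1-27 (circles) and wild type (squares), from whole reads recovered from the deposited values, with grey lines joining the library pairs that rows made from a single library share, and bars for mean ± SD (n = 3). GPT2 and BAM5 are higher in each ago1-27 library than in any wild-type library, and TPPB is lower.

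Low values of TPPB could be split in the same way. It had 7, 4 and 4 reads in ago1-27, and 28, 18 and 36 reads in wild type. The means were 0.302 ± 0.118 RPKM in ago1-27 and 1.66 ± 0.565 RPKM in wild type (SD, n = 3 each), again without overlap. The wild-type spread of TPPB was the widest of the 3 split genes in absolute terms.

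Beyond the members, starvation-induced genes were divided. Of 22 in the list, 11 had a row, 6 lower and 5 higher in ago1-27. Of these, 4 were called lower and 2 higher, against 10.5% and 11.3% of all rows compared. The median log2(RPKM + 1) difference was -0.81, against 0.62 over all rows compared. The called lower genes were KFB39, TPS11 and the bZIP factors bZIP1 and bZIP53. bZIP1, a sugar-repressed transcription factor that acts below SnRK1, was at 10.4 RPKM in ago1-27 and 27.8 RPKM in wild type. bZIP53, its heterodimer partner, was at 22.7 RPKM in ago1-27 and 57.6 RPKM in wild type. DIN9, a phosphomannose isomerase, was at 1.004 RPKM in ago1-27 and 2.53 RPKM in wild type, inside the threshold.

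Of the starvation-induced genes of amino acid breakdown, 3 had a row, each with the higher value in ago1-27, as 69.4% of all rows had, and 1 passed the threshold. GDH1, a glutamate dehydrogenase, was at 68.1 RPKM in ago1-27 and 24.4 RPKM in wild type, 2.79-fold higher (2.52 to 3.08) and past the threshold, although it overlaps a gene on the opposite strand. GDH2 was 1.68-fold higher and ERD5, the proline dehydrogenase, 1.57-fold higher in ago1-27, both inside it. The ratio of ERD5 was 0.970 and that of GDH2 1.03 when the ago1-27 column was divided by the median ratio of the table, 1.62. The table held 1 ratio between 1.5-fold limits, so this median depends on the rows kept and does not measure library scale. The branched-chain amino acid genes BCAT2, MCCA, MCCB and IVD had no row.

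**Figure D4:**
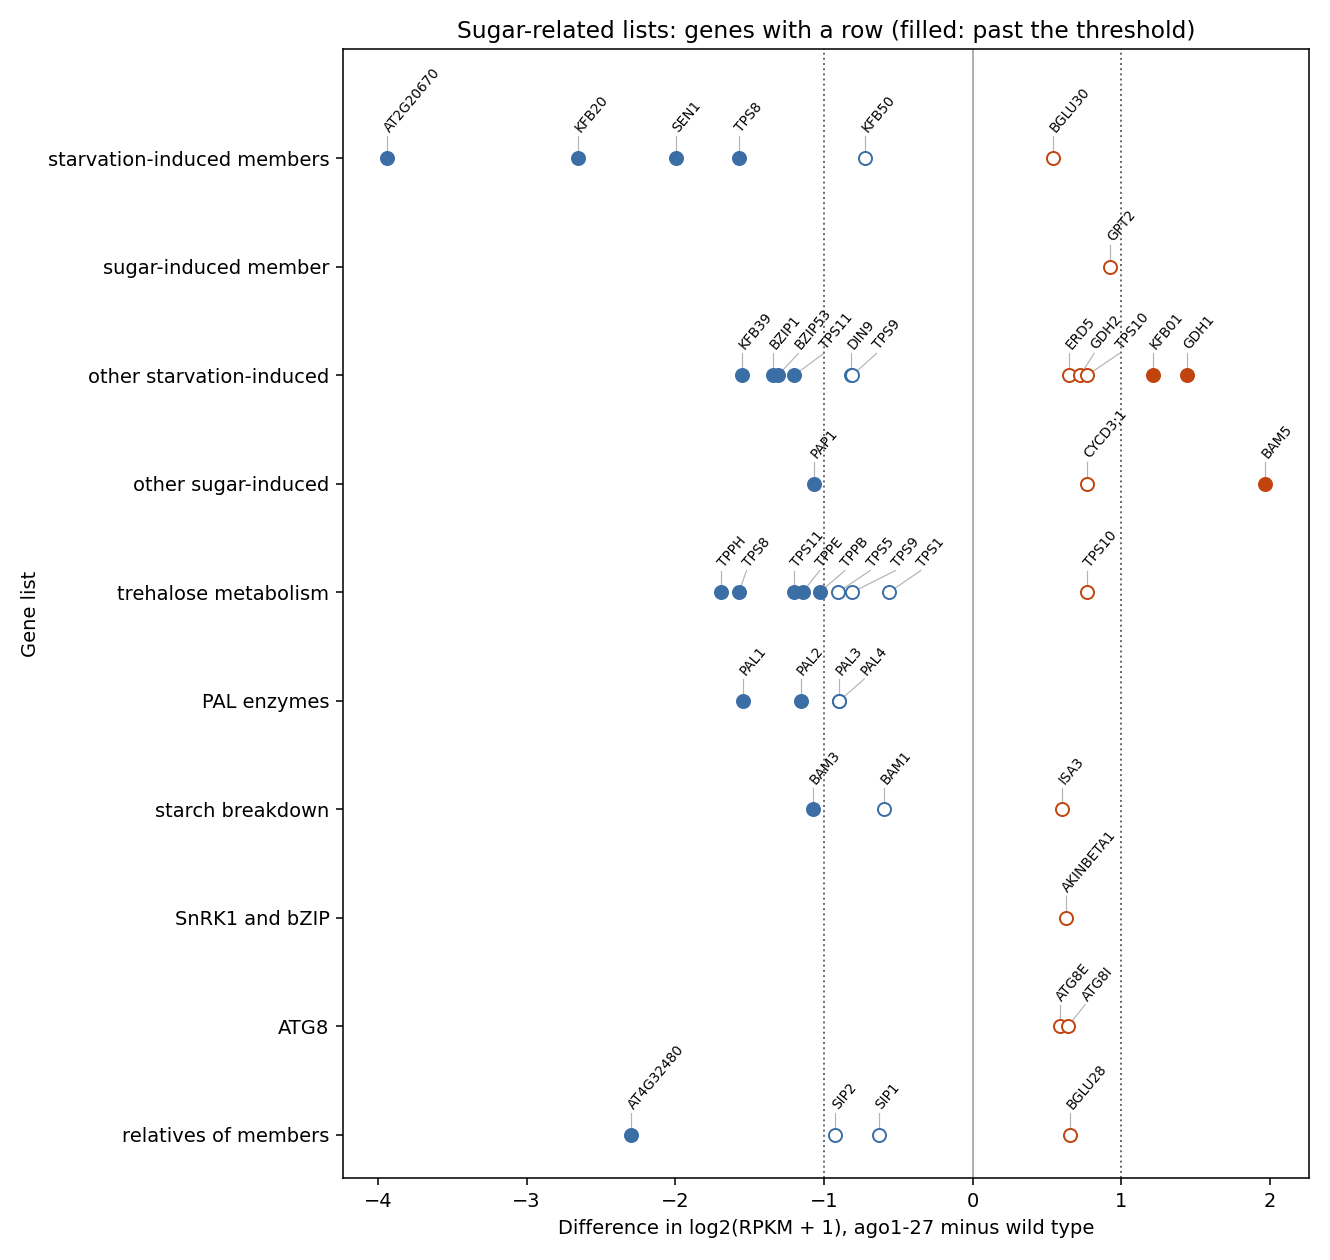
Difference in log2(RPKM + 1), ago1-27 minus wild type, for each gene with a row in the sugar-related lists (y axis), with filled circles for genes called higher (red) or lower (blue), open circles for the rest, and dotted lines at the threshold of 1. The starvation-induced members reach -3.94, the 9 trehalose genes lie left of 0 with the exception of TPS10, and all 4 PAL genes lie left of 0.

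Little of the kinase itself was in the table. Of 11 genes of SnRK1 subunits, partner bZIP factors and the glucose sensor HXK1, 1 had a row, AKINBETA1, at 63.9 RPKM in ago1-27 and 41.0 RPKM in wild type. Of 9 ATG8 genes of autophagy, 2 had a row, ATG8E and ATG8I, 1.52-fold and 1.60-fold higher in ago1-27. Of 13 starch breakdown genes, 3 had a row. BAM3, the main plastid beta-amylase of leaves, was at 385 RPKM in ago1-27 and 810.2 RPKM in wild type, 2.11-fold lower and past the threshold, and it overlaps genes on the opposite strand. BAM1 was 1.52-fold lower and the debranching enzyme ISA3 1.54-fold higher in ago1-27. AKINBETA1, ISA3, ATG8E and ATG8I had ratios below 1 after division by the median ratio, which depends on the rows kept.

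Relatives of DIN10, a raffinose synthase-like protein, were in the table although DIN10 was not. SIP2 (AT3G57520) was at 121 RPKM in ago1-27 and 230 RPKM in wild type, 1.90-fold lower. AT5G40390, a raffinose synthase, was at 2.50 RPKM in ago1-27 and 4.42 RPKM in wild type, from 87 and 140 reads of 1 library each. Neither passed the threshold. ASN2 and ASN3, the relatives of ASN1, and GPT1, the relative of GPT2, had no row.

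Several facts of the whole table bear on these values. It held 4711 genes with the higher value in ago1-27 and 2080 with the lower, and 1 ratio between 1.5-fold limits in either direction, so a gene without a row was not shown to be the same in both genotypes. Of the flower markers AP1, SEP4 and LFY had a row, with a summed level of 8.13 RPKM in ago1-27 and 12.7 RPKM in wild type. SEP4, at 6.22 RPKM in ago1-27 and 12.5 RPKM in wild type, made up most of it. AP1, at 0.733 RPKM in ago1-27 and 0.0779 RPKM in wild type, had the opposite direction. So had LFY, at 1.17 RPKM in ago1-27 and 0.151 RPKM in wild type. The wild-type value of AP1 equals an estimated 1 read in an average library. LFY rests on a single library per genotype, with 18 reads in ago1-27 and 2 reads in wild type. None of the 3 was called, and AP1 failed the RPKM limit. AP3, PI, AG and SEP1 to SEP3 had no row. All 4 leaf markers with a row, of 8, were lower in ago1-27, as 30.6% of all rows were. Their summed level was 3501 RPKM in ago1-27 and 5619 RPKM in wild type, and Rubisco activase (RCA) held most of it. The light-harvesting genes LHCB3, at 70.4 RPKM in ago1-27 and 154 RPKM in wild type, CAB2 and LHCB2.1 were called lower. Of all rows compared, 10.5% were called lower. CAB2 and LHCB2.1 share sequence with near-identical copies. The part of these leaf markers in the lower values of the starvation-induced genes was not tested. In wild type RCA had the highest value of all rows, while AP1 and LFY lay below 1 RPKM. Whether the marker levels match the labelled tissue was not tested either. All 50-base windows of the exons of the 7 genes were unique in the genome.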

How the data were processed

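Total RNA of 2 labelled samples, ago1-27 and wild type, was sequenced as 50-nt single-end reads without strand, per the labels' protocols. Per the submitters' processing notes, the tool was TopHat2 2.0.11 and the build TAIR10. The read counter and the rule for the rows kept were named in neither labels nor headers. In the deposited table the authors give 1 RPKM value per genotype and their ratio, per the file headers. That deposited ratio differed by at most 4.17e-08, relative, from ago1-27 RPKM over wild-type RPKM.

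Members and lists were chosen with earlier results of these data known. The rule named all members, list genes past the threshold, the highest leaf and floral markers, and the 3 genes nearest to ASN1, which could not be found since ASN1 had no row. Other list genes and the DUF506 relatives were named after their values were seen. Fold changes printed are plain RPKM ratios. The pseudocount of 1 serves the threshold and understates low genes. Without replicates, no p-value, limma or other test was used.

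Library totals were read from steps of low RPKM values, at 11407616 to 12294210 reads for ago1-27 and 10453032 to 13887069 for wild type. Intervals use reads estimated from RPKM, the longest RefSeq transcript and the mean total, and are Clopper-Pearson at 95%. Genes expected to have fewer than 160 reads were split into whole reads over 3 libraries, at lengths of 0.6 to 1.4 times the annotated ones, where 1 solution fitted both genotypes. The method was tested on simulated data, where splits over 3 libraries had fewer reads per library than BAM5 had in ago1-27. Whether the true split was the only match was not tested. Of the IDs, 6772 were in TAIR10.1 and 19 were not. Coordinates and promoters come from RefSeq TAIR10.1. Alternatives were pseudocounts of 0.1, 0.5 and none, no RPKM limit or one of 5, division by the median ratio, quantile normalization, and leaving out rows from 1 library. Computation used scipy 1.17.1, pandas 2.3.3 and numpy 2.4.6 in Python 3.11.15, with plots from matplotlib 3.10.9.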

Additional observations from a re-analysis of the deposited data

How the results depend on the processing

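Over all genes no library could be left out or paired, since the table gives 1 combined value per genotype. For GPT2, split into libraries, leaving out each in turn gave ratios of 3.47 to 4.33, and the library pairs as a replicate block gave 3.85, both chosen after seeing the data. Genes called lower numbered 4 of the members under 7 of 8 alternatives and 5 after division by the median ratio, where KFB50 joined at a log2 difference of -1.41. Genes called higher numbered 0, and 1 with a pseudocount of 0.1, 1 with 0.5 and 1 with none. GPT2 was that gene, at 1.74, 1.24 and 1.94, because a smaller pseudocount lets low values pass. The median of the starvation-induced members, -1.99, was -1.78 without the RPKM limit, which admits BGLU30, and -2.63 after division by the median ratio, which lowers all ago1-27 values alike. Of 47 single member values under the alternatives 6 moved beyond their counting interval, 5 of them after division by the median ratio. Another RPKM limit, or leaving out rows from 1 library, cannot alter a single value, and a pseudocount cannot alter its sign. Division by the median ratio, 1.62, only lowers ratios, and GPT2 at 3.84 lay above it, so no sign could change there. Under quantile normalization, where signs could change, 0 did. The other 33 genes with a row in the sugar-related lists gave 15 calls, 12 lower and 3 higher, and 13 to 22 calls under the alternatives. Over all rows compared, 21.8% were called in either direction. A limit of 5 RPKM removes GPT2 itself. Depth limits BGLU30 and GPT2 most.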

Other observations

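In 612 rows (9.01%) each value matched a whole number of reads from a single library, BGLU30 and AT5G40390 among them. Of the 9 ways to match an ago1-27 library with a wild-type library, these rows used 3, with 188, 206 and 218 rows, so each ago1-27 library was always matched with the same wild-type library. Within these pairs GPT2 was 3.04-fold, 5.73-fold and 3.28-fold higher in ago1-27, BAM5 8.37-fold, 9.67-fold and 8.90-fold higher, and TPPB 3.29-fold, 5.24-fold and 9.88-fold lower. The labels do not say what a pair shares. For BAM5 the wild-type values of the 3 libraries were 0.574, 0.572 and 0.579 RPKM, from 16, 12 and 13 reads.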
